A study of Rattus norvegicus with 6 samples.

Results

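Calcineurin is a phosphatase that calcium-bound calmodulin switches on. It removes phosphate from NFAT transcription factors in the cytoplasm, which then enter the nucleus, and in cardiac muscle this route is known for its part in hypertrophic growth. Rcan1 and Rcan2 encode proteins that bind and restrain calcineurin, and Rcan1 is itself a textbook NFAT target gene. Ppp3ca and Ppp3cb encode catalytic subunits of calcineurin, Nfatc1 to Nfatc4 encode the calcium-regulated NFAT factors, and Trpc6 encodes a cation channel of the plasma membrane that diacylglycerol opens.

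These 9 genes were taken by name, and each row of the deposited mRNA table whose RefSeq transcript belongs to them was used. The table held 20734 rows, and 8 of the 9 genes had exactly 1 row each. Levels of the remaining gene, Nfatc2, were not analysed here. RNA came from cultured ventricular cardiomyocytes of newborn Sprague-Dawley rats aged 1 to 3 days, 3 samples given 10 µM isoproterenol for 24 h and 3 control samples left without it for the same time. Isoproterenol is an agonist of beta-adrenergic receptors. Pre-plating was used in all cultures to remove fibroblasts, and serum was withdrawn ahead of the drug. The labels also describe several passages and the series text a transfection, neither of which matches primary cells given a drug. The labels do not say whether replicates came from separate isolations, so p-values here cover the spread among these samples, which may be technical.

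Each sample was hybridised to an Agilent array in 1 colour. The file headers gave 2 scan dates for the 6 arrays. Arrays that share a scan date are called a slide here, and no slide number was read. Isoproterenol replicate 1 lay on slide 1 with the 3 controls, and isoproterenol replicates 2 and 3 lay on slide 2. On slide 2 between 61.1% and 70.7% of mRNA rows were well above background, against 97.5% to 99.7% on slide 1, and no spot was saturated. Every member row was well above background on all arrays, with the exception of Nfatc3, which passed on 1 of 3 isoproterenol arrays and on 3 of 3 control arrays. All 8 rows entered the test. Levels below are log2 signals relative to the 75th percentile of the same array, so 1 unit is a doubling, and they compare arrays for the same gene, not genes with each other. Changes are isoproterenol minus control with the SE of limma's model, n = 3 per group. A row is said to have risen or fallen at a Benjamini-Hochberg adjusted p under 0.05 over all 20711 rows tested.

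Markers of the labelled cell type were present, and Myh6, alpha myosin heavy chain, averaged 9.29 with isoproterenol and 8.06 in controls. As a background for the counts of marker rows, 9.85% of all rows tested rose and 5.88% fell. Of 8 cardiomyocyte marker rows 1 rose and 0 fell. Their summed level, in multiples of the 75th percentile, was 1451 to 2424 with isoproterenol and 1246 to 1410 in controls. With slide as a block 0 rose and 1 fell: Myh6 was at 0.82 (adjusted p = 0.0707) and Pln, phospholamban, at −1.24 (adjusted p = 0.0244). Fibroblast markers were present too, despite the pre-plating: Col1a1, Col1a2, Pdgfra, Dcn, Postn and Lum were well above background on all arrays. Of 7 fibroblast markers 0 rose and 3 fell (Postn, Tcf21 and Lum), with sums of 109 to 152 with isoproterenol and 119 to 127 in controls. The changes of 2 of the 7 were positive, Col1a1 at 0.31 and Col1a2 at 0.65. In both every isoproterenol array lay above every control, and neither passed. Tcf21 was above background on 2 of 3 isoproterenol arrays, and its change of −0.75 was as small as −0.21 under the alternatives (adjusted p up to 0.437). Of 3 smooth muscle markers 2 rose (Acta2 and Tagln), with sums of 215 to 495 with isoproterenol and 81.6 to 146.9 in controls. With slide as a block neither passed, Acta2 at 1.16 (adjusted p = 0.309) and Tagln at 1.03 (adjusted p = 0.0649). Myh11, also of smooth muscle, was at −0.27 without the block and did not pass. Of 4 endothelial markers 1 fell, Kdr, with sums of 9.54 to 11.2 with isoproterenol and 9.18 to 10.5 in controls. The changes of 2 of the 4 were positive, with Cdh5 at 0.85, and did not pass. Kdr was above background on 1 of 3 isoproterenol arrays, and its change of −1.22 was as small as −0.059 under the alternatives (adjusted p up to 0.867). Of 5 leukocyte marker rows 0 passed by limma, also 0 at an unadjusted p under 0.05 (sums 5.56 to 7.50 with isoproterenol and 4.61 to 6.75 in controls). In such bulk cultures a different number of cells of a type and a different amount of RNA per cell cannot be told apart, and the part of these cell types in the results was not tested.

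Because Rcan1 and Trpc6 showed the largest changes among the 8 rows, the sequence before the start site that RefSeq lists for each is shown (build GRCr8, 250 bases, read 5′ to 3′). Capitals mark the letters GGAAA, the core that NFAT factors recognise, and TGACG, the core of the cAMP response element, on either strand (TTTCC and CGTCA on the other).
Rcan1 upstream sequence, chr11:45118237-45118486, minus strand: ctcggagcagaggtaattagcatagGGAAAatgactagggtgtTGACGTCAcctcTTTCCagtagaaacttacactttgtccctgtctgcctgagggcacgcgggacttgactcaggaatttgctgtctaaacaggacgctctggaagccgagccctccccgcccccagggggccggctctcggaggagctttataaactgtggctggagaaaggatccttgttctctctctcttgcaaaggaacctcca
Trpc6 upstream sequence, chr8:14043966-14044215, plus strand: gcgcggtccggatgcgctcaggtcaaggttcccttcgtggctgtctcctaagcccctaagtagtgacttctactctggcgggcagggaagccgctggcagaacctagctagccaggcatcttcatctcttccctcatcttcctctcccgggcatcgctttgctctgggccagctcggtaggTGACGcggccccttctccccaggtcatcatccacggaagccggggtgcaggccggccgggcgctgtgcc
The Rcan1 start site in that table lies 69829 bases inside the outermost end of the gene. Its window holds GGAAA at position −225 and TTTCC at −195, counted from the first base before the start site as −1, and between them the full palindrome TGACGTCA, which begins at −207 and contains TGACG and CGTCA overlapping each other. The Trpc6 window holds TGACG at −69 and no GGAAA on either strand. Among 33469 promoter windows of 300 bases (250 before and 50 after the start), 62.7% hold GGAAA, 21.2% hold TGACG and 1.83% hold TGACGTCA on at least one strand. Of the other members with a window, Rcan2 holds TGACG once, Ppp3cb holds TGACG and GGAAA once each, and Ppp3ca and Nfatc2 hold none of these letters. A match of letters is a description of the window, not a bound site.

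Of the 8 member rows 1 rose, 0 fell and 7 did not pass. This is 12.5%, and among all rows tested 15.7% changed, 9.85% higher and 5.88% lower, so the share of changed members lay close to the background. The median change of the members was 0.12, beside 0.062 for all rows. Trpc6 was the row that rose, Rcan1 had the largest change without passing, and the catalytic subunits and the NFAT factors stayed within 0.45 of no change on the log2 scale. In 4 rows (Rcan1, Ppp3ca, Nfatc1 and Trpc6) every isoproterenol array lay above every control array, and in Rcan2 every isoproterenol array lay below. Such a separation was found in 25.3% of all rows upward and in 15.8% downward.

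**Figure D1:**
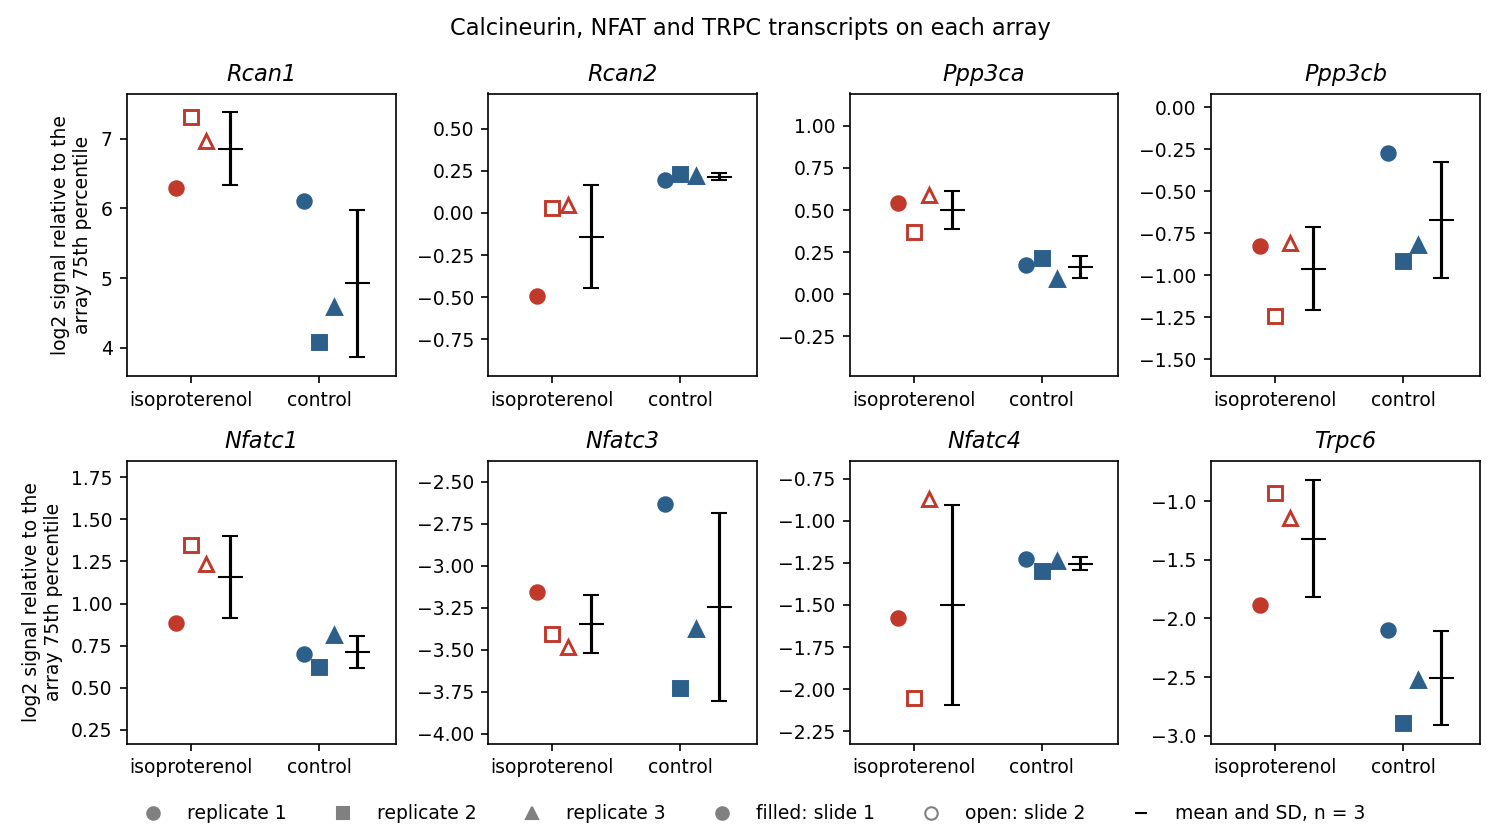
Level of each member transcript on each array, as log2 signal relative to the 75th percentile of that array, with isoproterenol left and control right; symbols mark the replicates, filled symbols slide 1 and open symbols slide 2, and bars give mean and SD (n = 3). The groups separate in Rcan1, Rcan2, Ppp3ca, Nfatc1 and Trpc6, and in Rcan1 control replicate 1 (6.11) lies just below isoproterenol replicate 1 (6.30).

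Rcan1, the inhibitor that calcineurin signalling itself induces, had levels of 6.30, 7.31 and 6.97 in isoproterenol replicates 1, 2 and 3, and of 6.11, 4.08 and 4.58 in control replicates 1, 2 and 3. In scanner units the signals were 47055, 32948 and 31233 with isoproterenol, against 37840, 9846 and 13221 in controls. All isoproterenol arrays were higher than all controls, but control replicate 1 stood close to isoproterenol replicate 1 on the same slide and far above the other controls. The mean was 6.86 ± 0.52 with isoproterenol and 4.92 ± 1.06 in controls (SD, n = 3 each). The change was 1.94 ± 0.54, 3.82-fold, with a 95% interval of 0.65 to 3.22, and it did not pass (limma, adjusted p = 0.0546). Control replicate 1 was 1.78 above the mean of the other controls, and only 0.691% of rows differed by more between these arrays. Without it the change was 2.53 and passed (adjusted p = 0.0232), as it did without isoproterenol replicate 1, at 2.22 (adjusted p = 0.0278), which leaves the groups on different slides. It also passed when only rows above background on all 6 arrays were tested (limma, adjusted p = 0.0242), and in none of the other 14 settings. That filter requires signal on the slide 2 arrays, which are isoproterenol arrays with fewer rows above background. Rcan1 stayed at 1.94 in that fit. It called 4328 of 12583 rows, 72.3% of them higher, against 3257 of 20711 and 62.6% as reported. The fit without isoproterenol replicate 1 called 10659 of 20711. Within slide 1 the change was 1.37 (adjusted p = 0.332).

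Trpc6, the channel gene, had levels of −1.88, −0.93 and −1.14 in isoproterenol replicates 1, 2 and 3, and of −2.10, −2.90 and −2.53 in control replicates 1, 2 and 3. Every isoproterenol array lay above every control, with the narrowest gap, as for Rcan1, between replicate 1 of each group. In scanner units the signals were 162, 108 and 113 with isoproterenol, against 128, 78.3 and 95.8 in controls, on slides that differ in overall brightness. The mean was −1.32 ± 0.50 with isoproterenol and −2.51 ± 0.40 in controls (SD, n = 3 each). The change was 1.19 ± 0.32, 2.27-fold, with a 95% interval of 0.43 to 1.94, and limma's adjusted p of 0.0496 lay just inside the threshold. The call rested on single arrays: leaving out isoproterenol replicate 2 gave 0.99 (adjusted p = 0.136), leaving out replicate 3 lost the call too (0.151), and leaving out control replicate 1, 2 or 3 gave 1.39 (0.0719), 0.99 (0.167) and 1.18 (0.160). Trpc6 passed without isoproterenol replicate 1, at 1.47 (limma, adjusted p = 0.00635). That fit leaves the groups on different slides and called 10659 of 20711 rows. Within slide 1, and with slide as a block, the change was 0.62 and the adjusted p was 0.293 in both fits. Of 17 alternative settings 4 kept the row past the threshold, and the change was positive in all 17. Among those 4, the setting with no filter on dim rows tested the same 20711 rows and only repeated the reported fit. Taking the brightest row per gene also left the change at 1.19 (limma, adjusted p = 0.0493).

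Rcan2, the second inhibitor gene, had a value of the opposite sign. Its levels were −0.50, 0.028 and 0.045 in isoproterenol replicates 1, 2 and 3, and 0.20, 0.23 and 0.22 in control replicates 1, 2 and 3. The controls were almost equal, the isoproterenol arrays all lay below them, and the array of slide 1 was the lowest. The mean was −0.14 ± 0.31 with isoproterenol and 0.22 ± 0.019 in controls, and the change of −0.36 ± 0.20 did not pass (adjusted p = 0.241, 95% interval −0.84 to 0.12). With slide as a block Rcan2 was at −0.71 ± 0.14 and passed (adjusted p = 0.0472), 1 of 8 members in a fit that called 7.00% of all rows. On slide 1 alone the value was the same −0.71 and missed the threshold (adjusted p = 0.0615). On that slide limma called 0 of 8 members, with 1 at an unadjusted p under 0.05, and 5.21% of all rows. The value with slide as a block and that of slide 1 alone are equal by construction, because slide 2 holds no control. Both set isoproterenol replicate 1 against the 3 controls, so the change in either fit rests on 1 isoproterenol array.

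**Figure D2:**
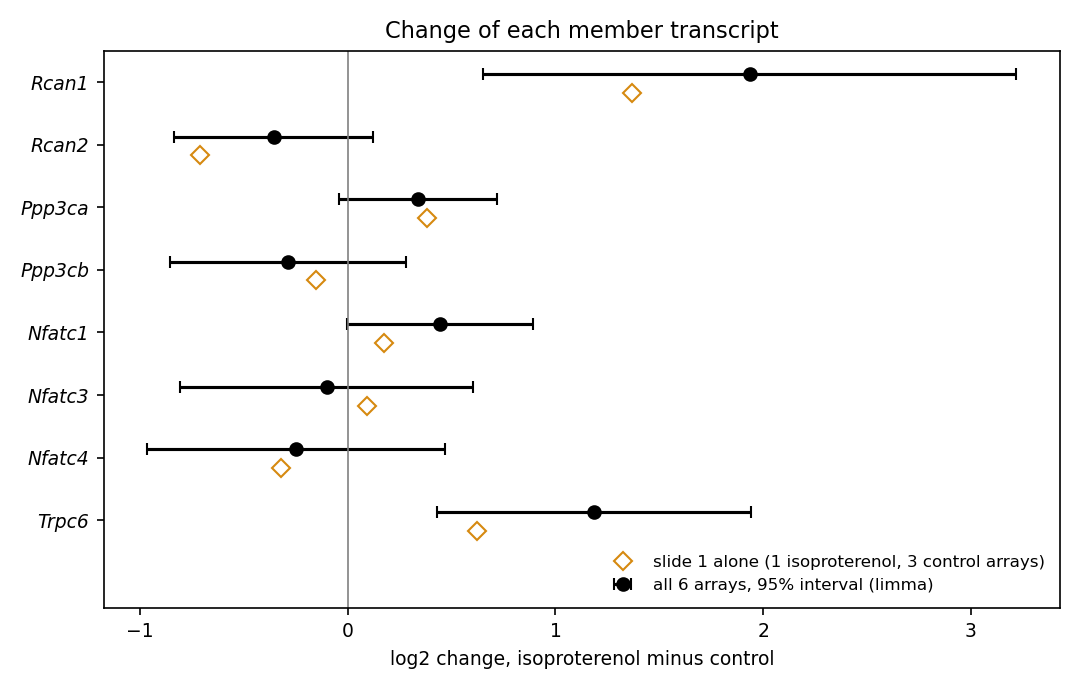
Log2 change of each member transcript, isoproterenol minus control, with the 95% interval of limma over 6 arrays (black) and the value within slide 1 (orange diamonds). The intervals of Rcan1 (0.65 to 3.22) and Trpc6 (0.43 to 1.94) lie above 0 before adjustment, and within slide 1 both values are smaller, at 1.37 and 0.62.

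The catalytic subunits of calcineurin differed little. Ppp3ca, the alpha subunit, had levels of 0.54, 0.37 and 0.59 in isoproterenol replicates 1, 2 and 3, against 0.17, 0.22 and 0.091 in the controls. The groups were separate but near each other, and the change of 0.34 ± 0.16 did not pass (adjusted p = 0.177, 95% interval −0.042 to 0.72, 0.38 within slide 1). Ppp3cb, the beta subunit, had levels of −0.82, −1.24 and −0.81 with isoproterenol and −0.27, −0.92 and −0.82 in controls. Here the groups overlapped, control replicate 1 was the highest array, and the change was −0.29 ± 0.24 (adjusted p = 0.408, 95% interval −0.86 to 0.28, −0.15 within slide 1). The intervals leave room for changes of the size of these values, and a missed threshold does not show that the subunits were unaffected.

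Among the NFAT genes, Nfatc1, the factor whose own promoter NFAT proteins are known to drive in lymphocytes, had levels of 0.88, 1.35 and 1.23 in isoproterenol replicates 1, 2 and 3, and of 0.70, 0.62 and 0.81 in the controls. The groups were separate, with isoproterenol replicate 1 just above the highest control, and the change of 0.44 ± 0.19 did not pass (adjusted p = 0.142). It was 0.17 within slide 1. Without isoproterenol replicate 1 it was 0.58 and passed (limma, adjusted p = 0.0135). That fit leaves the groups on different slides and called 10659 of 20711 rows. Nfatc3 and Nfatc4 overlapped between groups. Nfatc3, expressed in many tissues, had levels of −3.15, −3.40 and −3.48 with isoproterenol and −2.63, −3.73 and −3.37 in controls, a change of −0.10 ± 0.30 (adjusted p = 0.822), with the highest value again in control replicate 1. Nfatc4, a factor tied to cardiac hypertrophy through its partner Gata4, had levels of −1.58, −2.06 and −0.87 with isoproterenol and −1.22, −1.30 and −1.24 in controls. The controls of Nfatc4 were close together and the isoproterenol arrays lay on both sides of them, giving −0.25 ± 0.30 (adjusted p = 0.577). Under normexp background correction Nfatc3 was at 0.48 and Nfatc4 at 0.090, so neither had a settled direction.

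Within the groups, control replicate 1 exceeded the mean of the other controls by 1.78 in Rcan1, 0.92 in Nfatc3, 0.61 in Trpc6 and 0.59 in Ppp3cb, whereas the difference was at most 0.044 in size in Rcan2, Ppp3ca, Nfatc1 and Nfatc4. Over all rows the median size of this difference was 0.19. Isoproterenol replicate 1, on slide 1, differed from the mean of replicates 2 and 3, on slide 2, by −0.85 in Rcan1, −0.85 in Trpc6, −0.53 in Rcan2, −0.41 in Nfatc1 and −0.11 in Nfatc4. It lay above that mean by 0.29 in Nfatc3, 0.20 in Ppp3cb and 0.064 in Ppp3ca, and the median size over all rows was 0.51. Between isoproterenol replicate 1 and control replicate 1 Rcan1 differed by 0.18 and Trpc6 by 0.21. Among the isoproterenol arrays, slide and sample cannot be told apart.

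**Figure D3:**
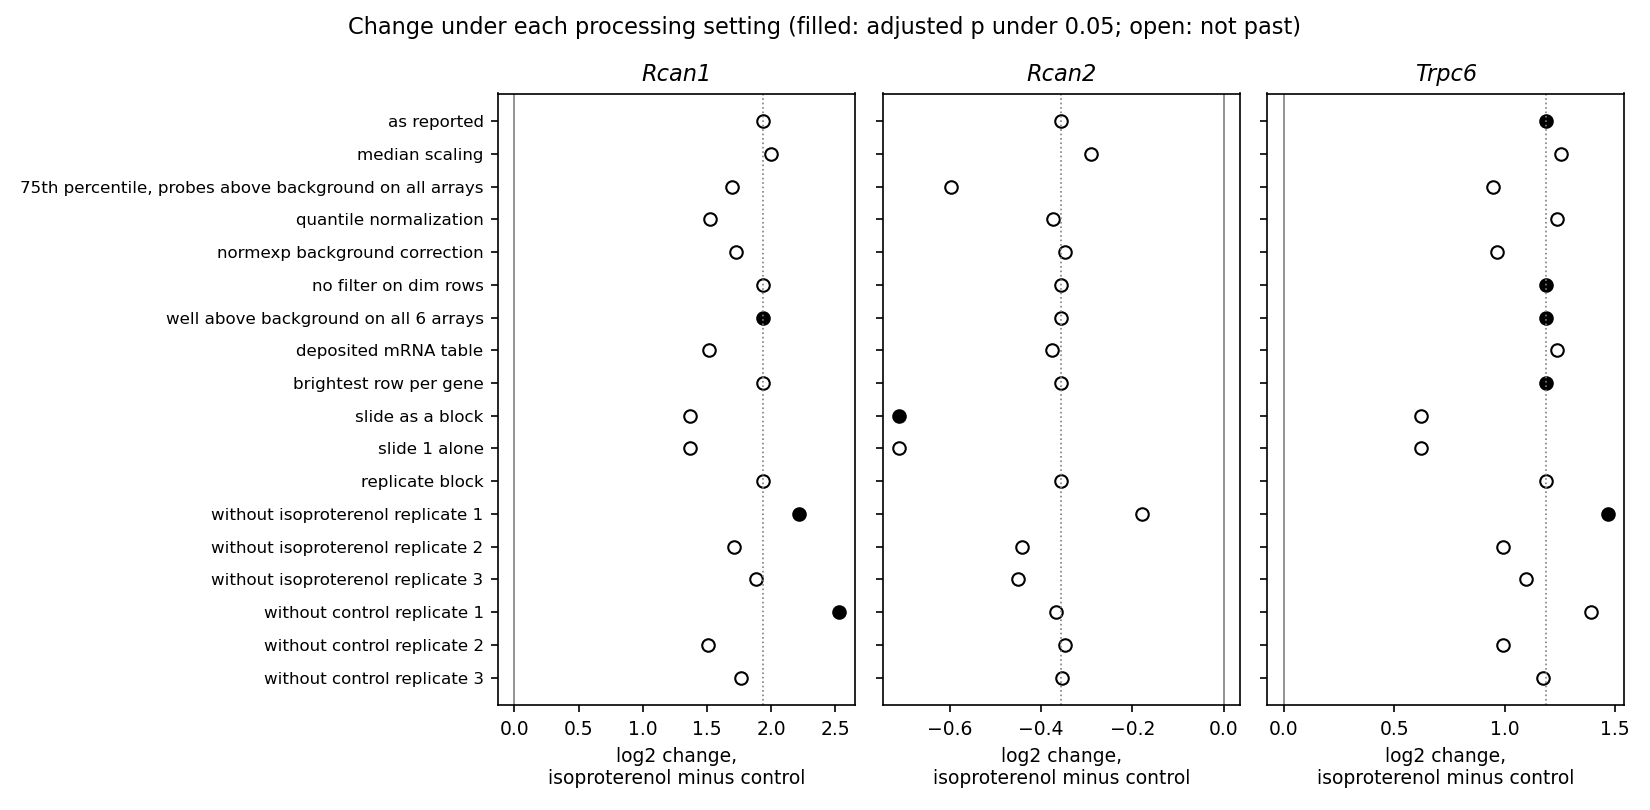
Log2 change of Rcan1, Rcan2 and Trpc6 (isoproterenol minus control) as reported and under each of 17 alternative settings; filled points have an adjusted p under 0.05, and the dotted line marks the reported value. Rcan1 ranged from 1.37 to 2.53, Rcan2 from −0.71 to −0.18 and Trpc6 from 0.62 to 1.47.

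Of 50 other genes of the pathway, 40 had a row, with 44 rows in all. Of these rows 8 rose, 4 fell and 32 did not pass, or 27.3% changed beside 15.7% of all rows. The list and its parts were chosen with earlier results of these data known, so their shares are descriptions and not evidence about the pathway. The median change of the 44 rows was 0.11, against 0.062 for all rows, and 0.067 within slide 1. Leaving out single arrays moved the counts of these rows and of all rows. Without isoproterenol replicate 2 or 3, 2 of the 44 were called each time, beside 1267 and 797 of all rows. Without control replicate 2 or 3, 2 were called each time, beside 500 and 329 of all rows. Without control replicate 1, 6 were called, beside 1473. Without isoproterenol replicate 1, 25 were called, in a fit that called 10659 of all 20711 rows. With slide as a block 3 of the 44 were called, a share near the 7.00% of all rows in that fit, and within slide 1 2 were called, beside 5.21% of all rows. The higher share of changed pathway rows was thus not seen in either slide fit. Akap1 and Fbxo32 passed in every setting in which they were tested, although Fbxo32 was at −0.995 under normexp against −2.05 as reported.

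Calm2, which encodes calmodulin, the calcium sensor of calcineurin, had levels of 6.68, 7.72 and 7.55 with isoproterenol and 6.12, 6.15 and 6.19 in controls. All isoproterenol arrays lay above the controls, and the array of slide 1 was the lowest of them. Calm2 rose by 1.17 ± 0.29 (adjusted p = 0.0395, 0.53 within slide 1). It passed in 6 of 17 alternative settings, and not with slide as a block (adjusted p = 0.105). Calm3 was at 0.10 ± 0.19 (adjusted p = 0.729). The other calcineurin subunits did not pass: Ppp3r1, the regulatory subunit, was at −0.58 ± 0.32 (adjusted p = 0.232, 0.14 within slide 1) and Ppp3cc, a catalytic subunit best known from testis, at 0.10 ± 0.19 (0.73).

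Among 15 regulators and anchors of calcineurin 4 rose and 3 fell, beside 9.85% of all rows higher and 5.88% lower. With slide as a block 2 of them were called, in a fit that called 7.00% of all rows. Lmcd1, a LIM-domain protein that enhances calcineurin signalling in mouse heart, rose by 2.46 ± 0.42 (adjusted p = 0.0136), with levels of 1.37, 2.10 and 2.13 under isoproterenol and 0.26, −1.23 and −0.81 in controls. As in Rcan1, control replicate 1 was the highest of the controls, and within slide 1 the change was 1.96 (adjusted p = 0.131). Csrp3, muscle LIM protein of the Z-disc, rose by 1.53 ± 0.32 (0.97 within slide 1), Fkbp1a, the protein through which tacrolimus inhibits calcineurin, by 1.09 ± 0.20 (0.89), and Akap5, an anchor that holds calcineurin and protein kinase A together, by 0.90 ± 0.23 (0.64). With slide as a block Csrp3, Fkbp1a and Akap5 did not pass (adjusted p = 0.142, 0.0696 and 0.198). They passed in 9, 10 and 7 of 17 alternative settings. Fbxo32, the ubiquitin ligase atrogin-1, which marks calcineurin for degradation in heart muscle of mice, fell, with levels of −2.68, −2.78 and −3.05 under isoproterenol (2 of 3 arrays above background) and −1.13, −0.48 and −0.76 in controls. Its change was −2.05 ± 0.22 (adjusted p = 0.00491), and within slide 1 it was −1.89 (adjusted p = 0.0469). Akap1, an anchor at the outer mitochondrial membrane, was at −0.54, −0.29 and −0.32 with isoproterenol and 1.46, 1.44 and 1.22 in controls, a fall with the change −1.76 ± 0.17 (adjusted p = 0.00356, −1.92 within slide 1). Myoz1, calsarcin of fast skeletal muscle, fell at −0.65 ± 0.17 (adjusted p = 0.049), was above background on 2 of 3 isoproterenol arrays, and was at 0.064 under normexp.

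**Figure D4:**
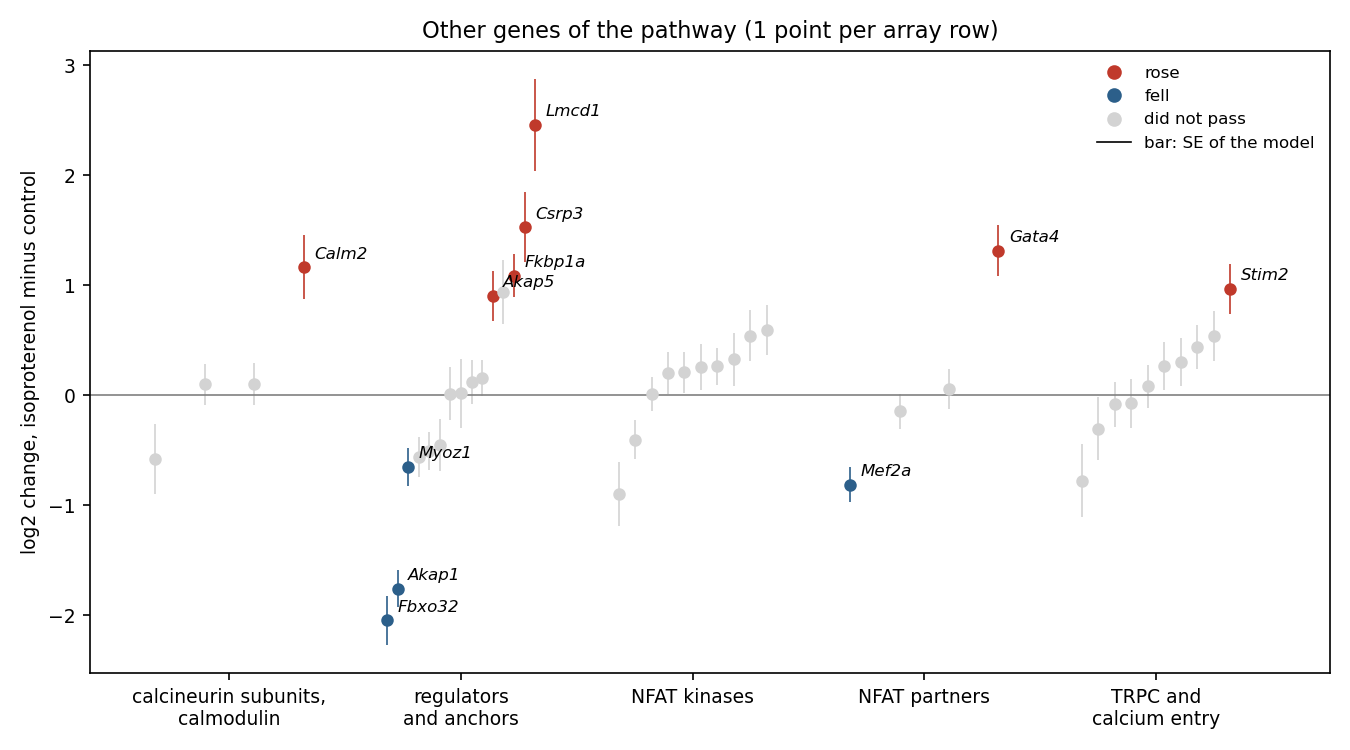
Log2 change, isoproterenol minus control, of the rows of other pathway genes by role (1 row is not shown), with the SE of limma's model as bars; red rows rose, blue rows fell and grey rows did not pass. Lmcd1 (2.46) and Fbxo32 (−2.05) are the extremes, and all 10 rows of NFAT kinases are grey. Among all rows tested 15.7% changed.

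Of 4 nuclear partners of NFAT 1 rose, 1 fell and 2 did not pass (Nfat5 at 0.052 and Mef2d at −0.15). Among all rows tested 9.85% rose and 5.88% fell, and lists of 4 to 10 rows are too short to set apart from these shares. Gata4, a zinc-finger factor that binds NFAT in cardiac muscle, rose by 1.32 ± 0.23 (adjusted p = 0.0149), with levels of 5.98, 6.51 and 6.58 under isoproterenol and 5.27, 4.83 and 5.02 in controls, and was at 0.94 within slide 1 (adjusted p = 0.0828). Mef2a, a MADS-box factor of muscle, fell, with the change −0.81 ± 0.16 (adjusted p = 0.0198). Within slide 1 it was −0.80 (adjusted p = 0.0646), and the same value with slide as a block had an adjusted p of 0.0488. The call was lost on leaving out any array other than isoproterenol replicate 1 (limma, adjusted p from 0.0621 to 0.107). Those fits called 329 to 1473 of all rows, against 3257 as reported. Of the 10 rows of kinases that return NFAT to the cytoplasm or oppose it 0 passed by limma, beside 15.7% of all rows, with 2 at an unadjusted p under 0.05. Among 10 rows of calcium entry and release genes 1 rose, beside 9.85% of all rows. This was Stim2, a calcium sensor of the endoplasmic reticulum, at 0.97 ± 0.23 (adjusted p = 0.034, 0.56 within slide 1). Stim2 passed in 8 of 17 alternative settings, and not with slide as a block (adjusted p = 0.124). Trpc1, the other channel of the Trpc family with a row, was at 0.30 ± 0.21 (adjusted p = 0.337) and at −0.021 within slide 1.

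The rows whose levels over the 6 arrays were most like those of Rcan1 were those of Nppb (brain natriuretic peptide), Ripor2, Dusp4 (a phosphatase of MAP kinases), Fzd2 (a Wnt receptor) and Tgfb2 (a transforming growth factor), with Pearson's r from 0.993 to 0.995. They were the highest of 8968 named rows that were above background on all arrays, so the high r follows from the choice, and the arrays share groups and slides. Nppb had levels of 7.11, 8.13 and 8.04 with isoproterenol and 6.43, 3.70 and 4.39 in controls. Control replicate 1 was the highest control and close to isoproterenol replicate 1, which likewise follows from choosing rows by their likeness to Rcan1.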

How the data were processed

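Intensities of 6 one-colour Agilent arrays were read from the deposited scanner files, which per the file headers were made with Agilent Feature Extraction 11.0.1.1 and hold background-subtracted intensity values. The authors' deposited mRNA table holds log2 values labelled as normalized; the sources used here do not name its tool. Flags (other columns) mark outliers and signals well above background, per the file headers. Each table row was assigned the probe with the nearest values across 6 arrays (scipy 1.17.1; distance under 0.05 and under 0.25 of the next best), which placed 20712 of 20734 rows; all 14744 neighbouring pairs of NM accessions then followed the probe numbers. On slide 1 the table equalled quantile-normalized log2 signals (95% of rows within 0.000627); on slide 2 95% lay within 0.485 and 0.255. A RefSeq table of GRCr8 named 13956 of 14757 NM rows and 0 of 5977 Ensembl rows.

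Log2 signals were scaled to the array 75th percentile, outlier spots left out, and rows well above background on at least 3 arrays fitted with limma 3.58.1 in R 4.3.3 (lmFit, eBayes, two-sided, Benjamini-Hochberg over all rows). The code was tested on simulated data. Members and lists were chosen with earlier results of these data known; other pathway genes are named where they passed, with all Trpc and Ppp3 genes; 1 such row, kept in the counts, is not reported here. Alternatives covered scaling, background correction, filters, the deposited table, slide, replicate block and leaving out each array; normexp (offset 50) used median signals, since the files hold no mean signal.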

Additional observations from a re-analysis of the deposited data

How the results depend on the processing

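Among 135 values of the 8 members under 17 alternatives, 111 kept their direction and their side of the threshold. These include the setting with no filter on dim rows, which tested the same 20711 rows and so repeated the reported fit. Member rows called numbered 1 as reported, 0 under median scaling, the percentile of probes above background everywhere, quantile normalization, normexp, the deposited table, slide 1 alone and the replicate block, 2 when only rows above background on all 6 arrays were tested, and 0 to 3 on leaving out single arrays. All mRNA rows called numbered 3257 as reported, 1450 with slide as a block, 1078 on slide 1 alone, 1422 with the replicate block and 329 to 10659 on leaving out single arrays. Other pathway rows called numbered 12 as reported, 7 under median scaling, 8 under quantile normalization, 3 with slide as a block, 2 on slide 1 alone, 2 with the replicate block and 2 to 25 on leaving out single arrays. Of the called rows, 62.6% were higher as reported, against 40.6% with the percentile of probes above background everywhere, 73.5% under normexp and 55.4% under quantile normalization; the median change of all rows was 0.062, −0.18, 0.37 and −0.087. Sign changes were all of values that had not passed, with the exception of Myoz1. Under normexp Nfatc3 was at 0.48, Nfatc4 at 0.090, Ppp3cc at −0.041 and Myoz1 at 0.064. Ppp3cc was at −0.14 with the percentile of probes above background everywhere and between −0.00323 and 0.19 on leaving out single arrays. With slide as a block and on slide 1 alone Nfatc3 was at 0.091, Ppp3r1 at 0.14 and Trpc1 at −0.021. On leaving out single arrays Nfatc3 ranged from −0.34 to 0.20 and Nfatc4 from −0.56 to 0.029. The cause of these differences was not tested. Deviations of same-numbered samples from their group means had correlations of 0.0083, 0.055 and −0.025. Those of differently numbered samples ranged from −0.082 to 0.074. This does not decide whether samples were paired, because deviations among the isoproterenol arrays also hold the slide. The labels give no pairing, and the replicate block, which gave 1422 calls, is shown only as an alternative. Nfatc3 and Myoz1 had no value in the setting that required all 6 arrays, nor had Fbxo32. Signal over background limits Nfatc3 on slide 2.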
